A study of Homo sapiens with 7 samples.

Results

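Binding of the vitamin D receptor (VDR) was described around 6 inflammatory genes in THP-1 cells, a monocyte-like human cell line that came from a patient's leukaemia. The genes were the chemokines CXCL8 and CCL2, the cytokines IL1B and IL10, the NF-κB subunit gene NFKB1 and the NF-κB inhibitor gene NFKBIA. All 6 were chosen by name, with earlier results of these data known. Every VDR peak that overlapped a gene or the 100 kb on either side of it was taken. This gave 82 peaks of 89218 in the lists. Joining peaks that shared at least 1 bp across libraries gave 49 sites.

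VDR was recovered by ChIPmentation, in which a transposase cuts and tags the immunoprecipitated chromatin for sequencing. The cells had been treated for 8 h with 100 nM 1,25D (calcitriol, the hormonal form of vitamin D) or with its solvent, 0.1% ethanol (EtOH), with 3 libraries each. An input library was not analysed here. All libraries come from 1 cell line at 1 time point, and no RNA was measured in them. The labels do not say that replicates came from separate cultures, so p-values measure the spread between libraries, which may be technical.

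VDR is a nuclear receptor that binds DNA together with the retinoid X receptor, at repeats of a short half-site. The members sit at different places of the inflammatory response. CXCL8 (interleukin-8) attracts neutrophils and CCL2 attracts monocytes. IL1B encodes the fever-inducing interleukin-1β, and IL10 encodes a cytokine that damps inflammation. NFKB1 encodes the p105 precursor of the p50 subunit of NF-κB. NFKBIA encodes IκBα, which holds NF-κB in the cytoplasm and is itself switched on by NF-κB. In monocytes and macrophages, 1,25D is known as a modulator of such genes.

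Each library has its own peak list, in which every peak carries the authors' fold enrichment over background and their p-value. The lists hold no read counts, so sequencing depth is unknown. The list of 1,25D replicate 2 ends on chromosome 16 as used here, so it covers IL10 and NFKBIA only. The other 4 loci rest on 2 1,25D libraries and 3 EtOH libraries. In the part of the genome covered by all 6, EtOH replicate 2 has 11317 peaks against 3647 to 5722 in the others. Both replicates 1 have a lower highest p-value (0.00433 in 1,25D and 0.00431 in EtOH) than the rest (0.00978 to 0.00997). Where a list has no peak, none passed the authors' limit in that library, which does not show that VDR was absent. Positions are in hg19 as listed.

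Promoter sequence is shown for the NF-κB genes, because NFKBIA was the gene with peaks directly before its start and NFKB1, its partner in the pathway, had none there. The sequences run from 250 bases before to 50 bases after the gene start and come from RefSeq in GRCh38.p14, at chr14:35404700-35404999 on the minus strand for NFKBIA and chr4:102501109-102501408 on the plus strand for NFKB1. Capitals mark the κB motif, to which NF-κB binds, and VDR half-sites, searched on both strands in the forms AGGTCA and AGTTCA and in the forms GGGTCA and GGTTCA. No 2 matches overlap.
NFKBIA: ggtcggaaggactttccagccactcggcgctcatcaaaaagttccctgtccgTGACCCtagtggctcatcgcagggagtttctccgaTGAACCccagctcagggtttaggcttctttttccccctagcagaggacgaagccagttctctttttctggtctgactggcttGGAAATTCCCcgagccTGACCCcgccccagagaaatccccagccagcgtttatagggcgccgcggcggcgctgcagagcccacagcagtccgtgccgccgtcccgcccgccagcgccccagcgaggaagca
NFKB1: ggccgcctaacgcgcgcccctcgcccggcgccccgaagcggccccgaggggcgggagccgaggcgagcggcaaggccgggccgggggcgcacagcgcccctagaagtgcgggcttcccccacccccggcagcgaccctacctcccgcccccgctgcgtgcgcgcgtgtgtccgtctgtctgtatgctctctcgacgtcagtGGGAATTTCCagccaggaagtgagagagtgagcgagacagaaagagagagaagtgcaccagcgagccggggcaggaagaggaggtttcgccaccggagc
Both promoters hold the κB sequence GGGAATTTCC, 49 bases before the start of NFKB1 and, on the other strand, 81 bases before the start of NFKBIA. The NFKBIA promoter holds 3 half-sites and the NFKB1 promoter 0. The table has 2 promoters for NFKB1 and 3 for IL10, of which the first listed is used here. The others hold neither motif. Of the 5 members with an entry in the promoter table (CCL2 had none), IL1B and IL10 hold 1 half-site each and CXCL8 none. A κB match occurs in 11.3% and at least 1 half-site in 38.6% of all 35116 promoters of this length in the table, and 3 or more half-sites occur in 2.09%.

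VDR peaks recurred around 3 of the genes, CXCL8, IL10 and NFKBIA, where 5 sites were called in every library that covers them. Over the genome such sites are rare: they form 1.03% of the 28989 sites in the part covered by 6 libraries and 1.34% of the 23253 sites in the part covered by 5. A 200-kb tile of the genome, close to the size of most of these windows, holds at least 1 in 5.46% of tiles in the first part and 5.2% in the second. At least 2 such sites, as found around CXCL8 and NFKBIA, are held by 0.272% and 0.245% of tiles. A site with a fold of 10 or more in every 1,25D list, as found around all 3 genes, is held by 3.01% and 2.92%. The tiles are not matched for gene density, and the genes were chosen with earlier results of these data known. Of the 49 sites, 13 were in 2 or more lists. This is a larger share than the 10.2% and 8.12% of sites in the parts covered by 6 and 5 libraries. IL1B had 2 sites that were called in every 1,25D list and no EtOH list, a pattern shown by 2.7% of sites in its part of the genome and by 1.7% in the part of IL10 and NFKBIA. Peaks were joined into sites before the window was applied, and at 1 of these IL1B sites the peak of 1,25D replicate 3 ended outside the window. Without that peak the site would be in a single list, and would count neither for this pattern nor among the 13. No site was called in every EtOH list and no 1,25D list, a pattern shown by 0.0086% and 0.0379% of sites. CCL2 and NFKB1 had neither kind.

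**Figure D1:**
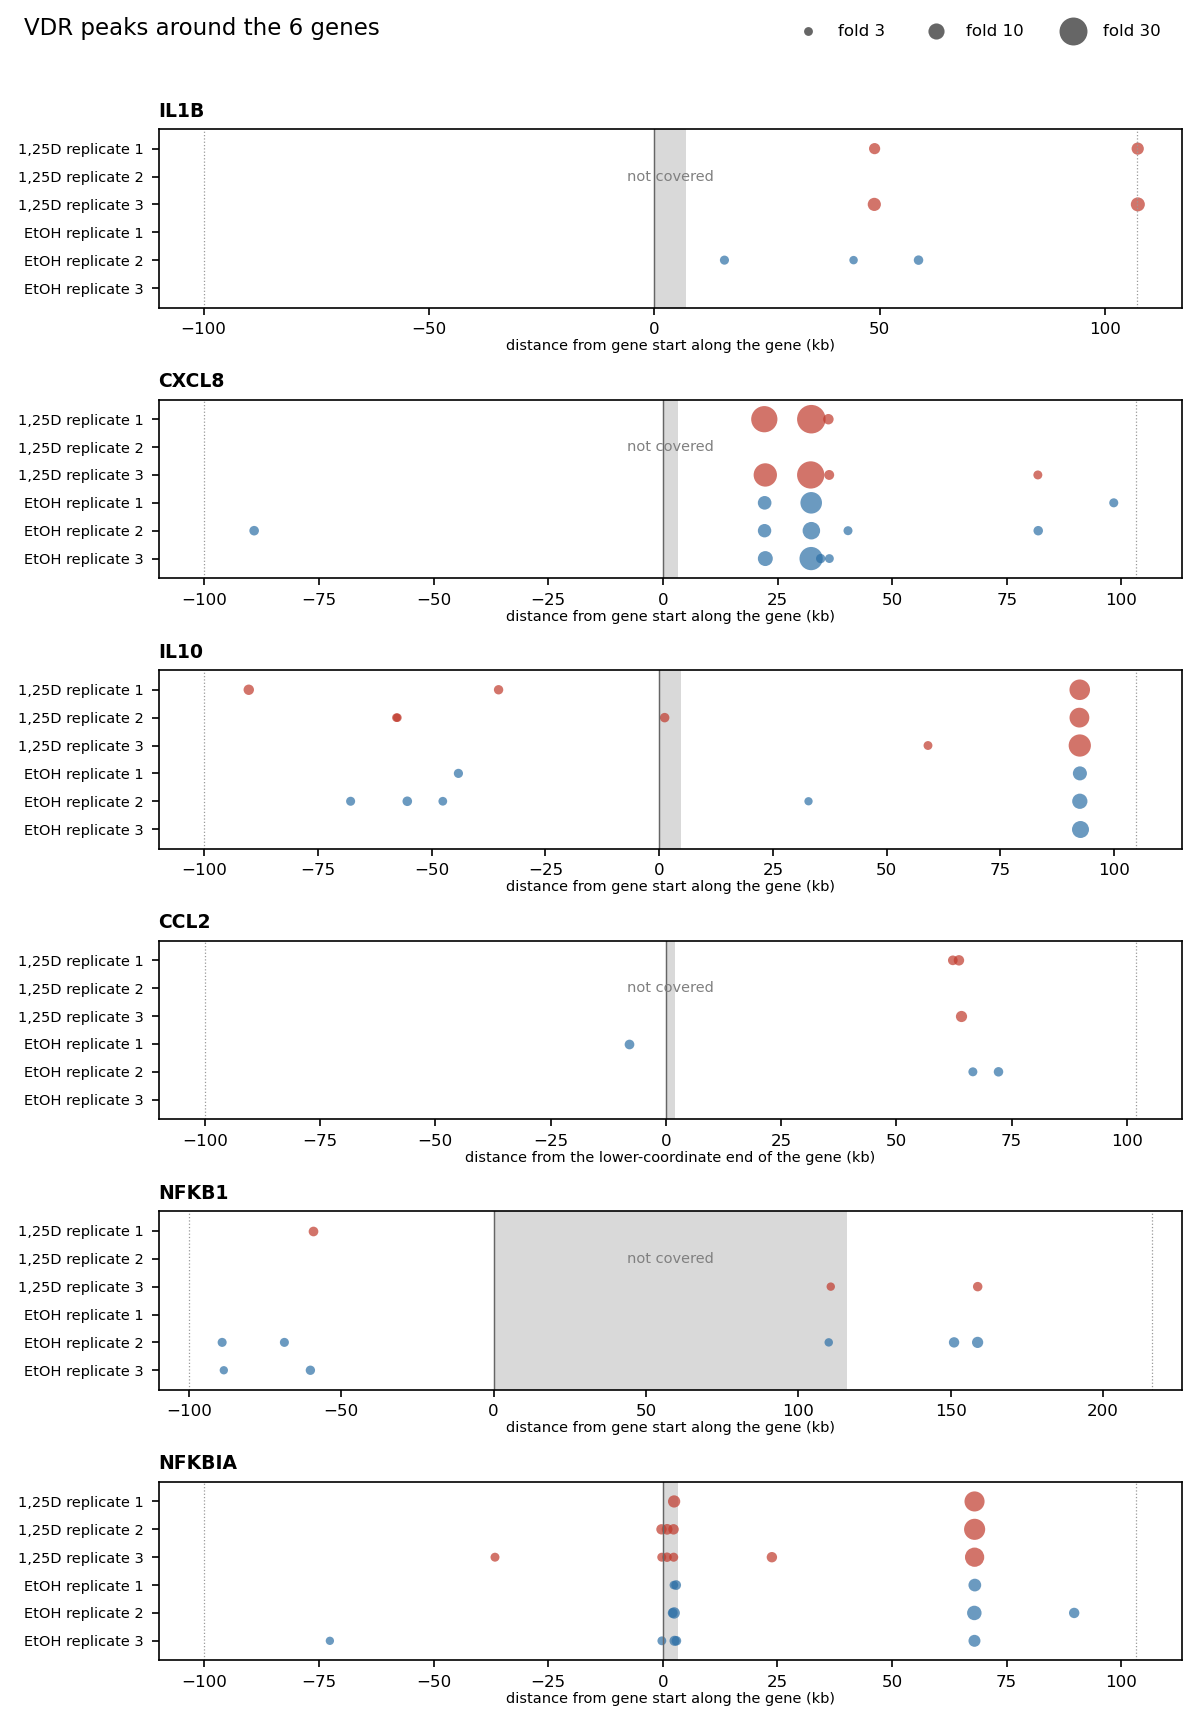
VDR peaks within 100 kb of each gene, by distance from the gene start in kb (x axis, along the gene; for CCL2 from its lower-coordinate end) and by library (y axis). The area of a circle is proportional to the authors' fold, grey marks the gene and dotted lines mark the window. The large circles line up over all covering libraries at CXCL8, IL10 and NFKBIA, with folds of up to 31.3, 19.0 and 17.1.

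In each of its 5 lists CXCL8 had the highest fold of the 6 loci, at the farther of a pair of sites after the end of the gene. The nearer site lay 22.3 kb from the gene start (chr4:74628089-74628964) and the farther one 32.4 kb from it (chr4:74638055-74639124). Both are on the side of CXCL6, the next protein-coding gene in the RefSeq order of GRCh38. They were 10.1 kb apart, centre to centre. Of the 311 sites called in every library of that part, 2.57% had another such site at this distance or nearer.

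At the nearer site the fold was 26.4 and 20.9 in 1,25D replicates 1 and 3, against 7.14, 6.92 and 8.57 in EtOH replicates 1 to 3. All 1,25D values were above all EtOH values, and the means were 23.7 ± 3.91 (SD, n = 2) and 7.55 ± 0.898 (SD, n = 3), a ratio of 3.14. A ratio this high or higher was seen at 8.04% of the 311 sites. At the farther site the fold was 31.3 and 28.6 after 1,25D, against 17.9, 11.8 and 20.7 after EtOH. These values did not overlap either, with means of 29.9 ± 1.90 and 16.8 ± 4.58 and a ratio of 1.78, which 41.8% of sites reached. The median ratio over the 311 sites was 1.61 (quartiles 1.26 and 2.22).

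The farther site was among the top peaks of every list. It was number 17 of 4230 and 20 of 4196 peaks in the 1,25D lists, and number 12 of 3997, 27 of 10052 and 7 of 4667 in the EtOH lists. The pair of CXCL8 sites was also compared within each list. Within a list, the fold of the farther site was 1.18 and 1.37 times that of the nearer one after 1,25D, against 2.50, 1.70 and 2.42 times after EtOH. The groups did not overlap, but an exact permutation test (two-sided, 10 assignments, n = 2 and 3) gave p = 0.2. In this comparison a factor common to all folds of a list cancels, but a change that differs between strong and weak sites does not. The comparison was chosen after the values were seen.

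Weaker peaks surrounded the pair. A site 36.2 kb from the start had folds of 4.21 and 3.81 after 1,25D and 3.01 in EtOH replicate 3, and was not called in the other EtOH lists. A site 81.8 kb from the start had folds of 3.09 in 1,25D replicate 3 and 3.46 in EtOH replicate 2. No list had a peak over CXCL8 itself or at its start.

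CCL2 had weak peaks that no other library repeated. There were 2 and 1 peaks in 1,25D replicates 1 and 3, against 1, 2 and 0 in EtOH replicates 1 to 3, with folds of 3.10 to 4.83. The 3 peaks after 1,25D lay within 60.3 to 62.0 kb of the gene, on the side of the chemokine genes CCL7, CCL11 and CCL8 (in RefSeq order). They lay next to each other without sharing a base, so they count as separate sites (chr17:32644449-32644596, 32645764-32645939 and 32646121-32646396), and the strongest of them, in 1,25D replicate 3, had a fold of 4.83. The EtOH peaks lay 8.08 kb from the gene on its other side and 64.7 and 70.2 kb from it on the side of CCL7. A site in at least 2 lists is present in 23.9% of 200-kb tiles of that part (33.6% in the part covered by 6 libraries), so its absence is the common case.

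IL1B was the only locus with sites called in every 1,25D list and no EtOH list (hormone-only), where 2 1,25D lists had to agree. A site in NFKBIA, which 3 1,25D lists cover, was also in 2 of them and in no EtOH list. The IL1B site at chr2:113545380-113545802 lay 48.8 kb from the start of IL1B, past the gene's end and on the side of IL1A, the gene of interleukin-1α. Its fold was 4.81 in 1,25D replicate 1 (p = 5.19e-07 in the authors' list) and 6.68 in 1,25D replicate 3 (p = 3.73e-10). It was called in no EtOH list. It was number 863 of 4230 and 567 of 4196 peaks of its lists, well below the CXCL8 pair.

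The other hormone-only site lay at the edge of the window, on the same side. Its peak in 1,25D replicate 1 (chr2:113486982-113487339, fold 5.77) reached 2 bases into the window, and its peak in 1,25D replicate 3 (chr2:113486966-113487301, fold 7.56) ended 36 bases outside. By the rule the first is a member and the second is not. The site counts include the second peak, because peaks were joined into sites before the window was applied. In the EtOH lists, replicates 1 and 3 had no peak in the window and replicate 2 had 3, with folds of 2.75 to 3.46 at places where no other list had one. No list had a peak over IL1B or at its start.

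IL10 had 1 strong site, far from the gene, in all 6 lists. It lay 92.4 kb from the start, beyond the gene's end (chr1:206853059-206853918). This is the side of MAPKAPK2, a kinase gene next to IL10 at lower coordinates in RefSeq order. The fold was 16.2, 15.1 and 19.0 in 1,25D replicates 1 to 3, against 7.58, 8.96 and 11.1 in EtOH replicates 1 to 3. All values after 1,25D were higher than all after EtOH. The means were 16.8 ± 2.02 and 9.21 ± 1.77 (SD, n = 3 each), a ratio of 1.82. This is close to the median of 1.60 over the 298 sites called in all 6 libraries (quartiles 1.17 and 2.28).

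The other 11 sites around IL10 were each in 1 list, 6 after 1,25D and 5 after EtOH. Of these, 1 lay in the gene, 1.21 kb from its start, in 1,25D replicate 2 with a fold of 3.47. Peaks on the side of IL19, a related cytokine gene, came in 8 sites with folds of 2.86 to 4.17, and no list shared any of them.

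NFKBIA had a strong distant site and a cluster of peaks with low folds over the gene itself. The distant site lay 68.0 kb from the start (chr14:35805582-35806332), on the side of PSMA6, a proteasome subunit gene. Its fold was 15.5, 17.1 and 14.2 in 1,25D replicates 1 to 3, against 6.25, 8.06 and 5.52 in EtOH replicates 1 to 3. The groups did not overlap. The means were 15.6 ± 1.44 and 6.61 ± 1.31 (SD, n = 3 each), a ratio of 2.36, which 24.2% of the 298 sites reached. Its peak was 669, 729 and 750 bp long after 1,25D, against 442, 303 and 304 bp after EtOH, again without overlap, as at 45.3% of the 298 sites. Lengths overlapped between the treatments at the other 4 sites called in every list.

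The site in the gene had low folds in all 6 lists. It lay 2.37 kb from the start, towards the end of the gene (chr14:35871249-35871926). Its fold was 5.78, 4.22 and 3.17 in the 1,25D lists, against 2.81, 5.05 and 3.95 in the EtOH lists. The groups overlapped, with means of 4.39 ± 1.31 and 3.94 ± 1.12 and a ratio of 1.11. Its place within the lists varied. It was number 582 of 5203, 1162 of 3647 and 2697 of 4424 peaks in 1,25D replicates 1 to 3. In EtOH replicates 1 to 3 it was number 4973 of 5251, 256 of 11317 and 518 of 5722. Within a list, the distant site had 2.68, 4.06 and 4.49 times the fold of the gene site after 1,25D, against 2.23, 1.60 and 1.40 times after EtOH. The treatments did not overlap (means 3.74 ± 0.943 and 1.74 ± 0.433, SD, n = 3 each), and an exact permutation test (two-sided) gave p = 0.1, which is the lowest value this design can reach. Like the CXCL8 ratio, this was chosen after the values were seen and has the same limit. Neither ratio was set beside those of other pairs of sites.

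Further weak peaks lay along NFKBIA in some lists. A site 0.927 kb from the start had folds of 4.41 and 3.45 in 1,25D replicates 2 and 3 and was in no EtOH list. A site near the gene's end, 2.96 kb from the start, had folds of 3.67 and 3.50 in EtOH replicates 1 and 3 and was in no 1,25D list. The site before the start (chr14:35874087-35874444) had folds of 4.12 and 3.09 in 1,25D replicates 2 and 3, against 3.01 in EtOH replicate 3. Its peaks reached from 127 to 484 bases before the start in 1,25D replicate 2, from 136 to 347 in 1,25D replicate 3 and from 147 to 291 in EtOH replicate 3. In the printed NFKBIA promoter, half-sites begin 198, 163 and 65 bases before the start. By these distances the first 2 half-sites, which do not adjoin, fall within all 3 peaks. The third half-site and the κB motif fall between the peaks and the start. Only single half-sites were searched, not repeats of them. The sources give gene lengths of 3245 bases (hg19) and 3237 bases (GRCh38), so the starts of the builds may differ, by an amount that was not measured. A match is a description of the letters, not evidence of binding.

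**Figure D2:**
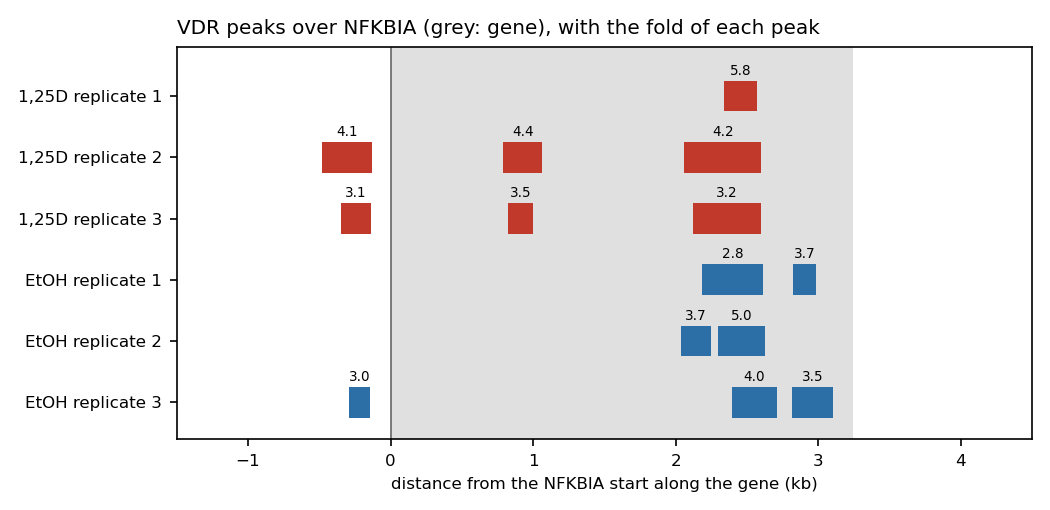
Peaks over NFKBIA (grey) by distance from the gene start in kb (x axis) and library (y axis), each bar as long as its peak and labelled with the authors' fold. All 6 libraries have a peak between 2 and 3 kb, and 3 have a peak just before the start, with folds of 4.12, 3.09 and 3.01.

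NFKB1, the longest of the genes, had 9 sites in its window, of which 1 was in more than 1 list. That site lay 42.9 kb beyond the end of the gene (chr4:103581257-103581496), on the side of MANBA, a lysosomal mannosidase gene. Its fold was 3.45 in 1,25D replicate 3, against 4.84 in EtOH replicate 2. The number of peaks in the window was 1 and 2 in 1,25D replicates 1 and 3, against 0, 5 and 2 in EtOH replicates 1 to 3. No fold reached 5 in any list, and no peak lay at the gene's start.

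Across the members, the distant sites called in every list had higher folds after 1,25D. Of the 5 sites called in every list, 4 had folds after 1,25D that were all above those after EtOH. This was the majority pattern over the genome, found at 61.4% of such sites in the part covered by 6 libraries and 69.5% in the part covered by 5. The site inside NFKBIA was the exception. Since each list was called by itself, folds were compared between treatments without a test.

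Ranks within the lists were compared as well. The nearer CXCL8 site ranked 26 and 47.5 of the 311 sites in the 1,25D lists, against 85, 110 and 61.5 in the EtOH lists, so it was higher in every 1,25D list. This pattern was seen at 22.5% of these sites and at 20.8% of the 298 sites in the part of IL10 and NFKBIA, so 1 of 5 members is near the background. The farther CXCL8 site ranked 17 and 19, against 12, 28 and 7.5. The IL10 site ranked 73, 77 and 54 of 298 after 1,25D, against 77, 55 and 28 after EtOH. The distant NFKBIA site ranked 82, 57 and 90, against 105, 75.5 and 149, and the site in NFKBIA ranked 226.5, 271.5 and 287, against 293, 169.5 and 241.5. For these 4 sites the ranks of the treatments overlapped.

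**Figure D3:**
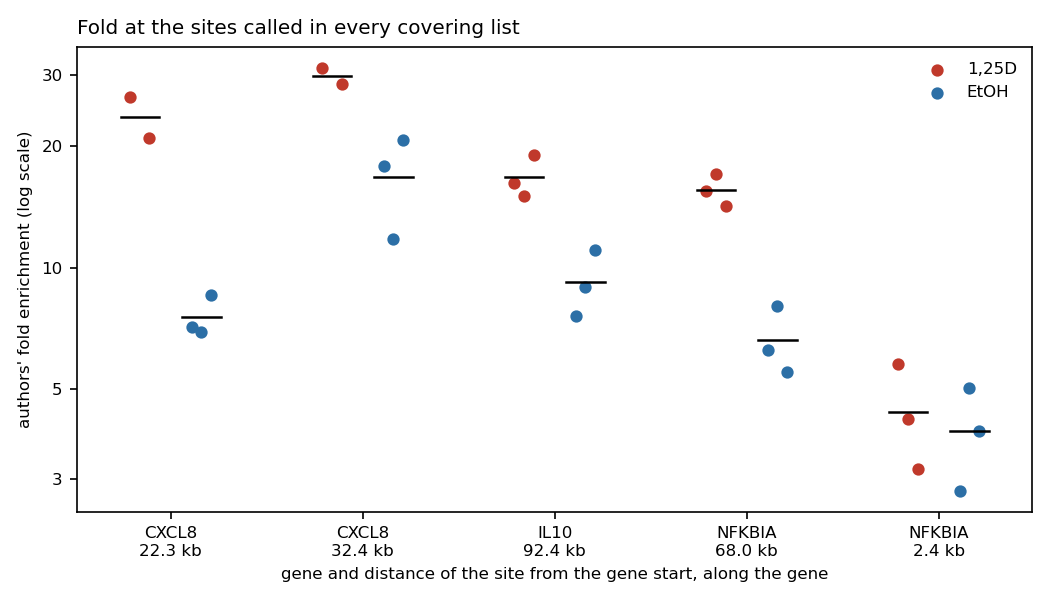
The authors' fold enrichment (y axis, log scale) at the 5 sites called in every covering list (x axis), 1 point per library and a bar at the group mean. Points after 1,25D lie above those after EtOH at 4 sites and overlap at the site inside NFKBIA.

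**Figure D4:**
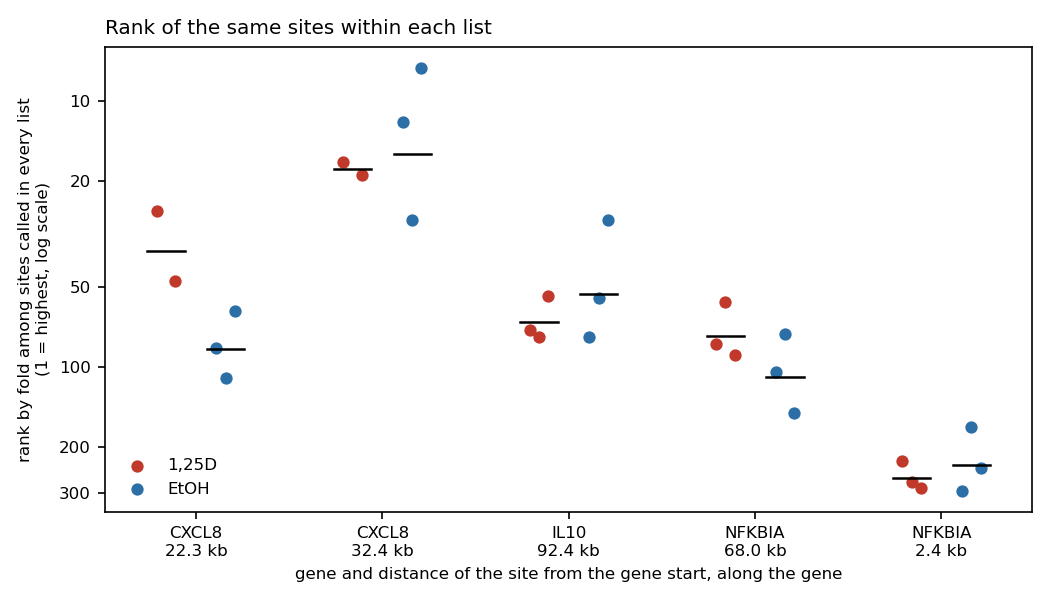
The rank of the same 5 sites by fold within each list (y axis, log scale, 1 at the top), 1 point per library and a bar at the group mean, among 311 sites for CXCL8 and 298 for IL10 and NFKBIA. The treatments are separate at the nearer CXCL8 site, with ranks of 26 and 47.5 after 1,25D and 61.5 to 110 after EtOH, and overlap at the other 4 sites.

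The number of peaks per window differed between treatments by less than the larger of the SDs at each of the 6 genes. Means were 3.5 ± 0.707 after 1,25D and 4 ± 1 after EtOH at CXCL8, 3 ± 1 and 2.67 ± 2.08 at IL10, and 4 ± 2 and 4 ± 1 at NFKBIA. At IL1B and CCL2 they were 1.5 ± 0.707 after 1,25D, against 1 ± 1.73 and 1 ± 1 after EtOH, and at NFKB1 1.5 ± 0.707 and 2.33 ± 2.52 (SD, n = 3 each at IL10 and NFKBIA, otherwise n = 2 for 1,25D and 3 for EtOH). Unadjusted two-sided exact permutation p-values over the 6 tests ran from 0.6 at IL1B to 1 at NFKB1 and NFKBIA, where the design allows no p below 0.1.

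The 36 sites in a single list, 13 after 1,25D and 23 after EtOH, had folds of 2.63 to 4.83 with a median of 3.21, and a median length of 148 bp. Over the genome, 89.8% and 91.9% of sites in the 2 parts were in 1 list. Of the 23 sites around these genes that were in 1 EtOH list, 16 came from EtOH replicate 2, and without them there were 13 sites after 1,25D and 7 after EtOH. Apart from the IL1B pair, the nearest peak inside a window edge was a CXCL8 peak of fold 3.15, 4.79 kb from the edge, and the nearest outside one was an IL10 peak of fold 2.95, 2.05 kb beyond it.

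None of the 6 genes had a peak at its start in every list of a treatment.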

How the data were processed

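Peak lists of 6 VDR ChIPmentation libraries were used. Per the submitters' processing notes, Bowtie 1.1 aligned the reads to hg19 and MACS2 found the peaks. Their settings, the use of the input and any removal of duplicates are not given. The deposited lists give each peak's fold enrichment, a ratio over background, and its p-value, per the file headers. Peaks were called per library. Whether starts count from 0 or 1 is not stated. Incomplete last lines (1 in each of 3 lists) were left out.

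Peaks sharing at least 1 bp were joined into sites, over 6 libraries up to chromosome 16 at 50293713 and over 5 from there to chromosome 5 at 90175161. Where a list had several peaks at a site, the highest fold was used. Exact permutation tests compared log2(number of peaks + 1) and, chosen after the values were seen, the log2 ratio of the folds of paired sites within a list. Presence and the fold of a single site were not tested. Sites in at least 2 lists were named by position, and other peaks were given as ranges, except where a sentence singles out a count of few. With no hg19 genome or annotation, distances use the hg19 gene positions, neighbours come from RefSeq order (GRCh38.p14), and exons, peak sequences and other pathway genes were not analysed here. Other fold limits, windows, overlaps and left-out libraries were tried. The steps ran in Python 3.11.15 with NumPy 2.4.6 and were tested on simulated lists. The genes and comparisons were chosen with earlier results of these data known.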

Additional observations from a re-analysis of the deposited data

How the results depend on the processing

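For the number of peaks per window, no alternative could give an exact permutation p below 0.1, the lowest that the design allows. The difference in this number (log2, 1,25D minus EtOH) changed sign easily. With peaks of a fold of 5 or more it was 0 at CXCL8, IL10 and NFKBIA and 1 at IL1B (exact permutation p of 0.1, against 0.6 for all peaks). With a fold of 10 or more it was 0.67 at IL10 (exact permutation p of 0.4, against 0.8). It was then 0.58 at CXCL8 and 1 at NFKBIA, each with an exact permutation p of 0.1 against 0.7 and 1. The nearer CXCL8 site and the distant NFKBIA site pass this limit in 1,25D lists only, so these values restate their folds. At IL1B, peaks of a fold of 5 or more were also in 1,25D lists only, but at different sites. In 1,25D replicate 1 the peak was that at the window edge (fold 5.77). In 1,25D replicate 3 it was that 48.8 kb from the start (fold 6.68). The value at IL1B therefore rests on no site that passes this limit inside the window in both lists. Folds all higher after 1,25D were seen at 61.4% and 69.5% of sites called in every list, in the parts covered by 6 and 5 libraries. Over the alternatives p ranged from 0.1 to 1 at IL1B, CXCL8 and NFKBIA, and from 0.3 to 1 at IL10. CCL2 and NFKB1 have no peak at either limit and IL1B none at 10, so no value could be had. With windows of 50 kb it was 0.031 at CXCL8, -0.19 at IL10, -0.33 at CCL2, 0.13 at NFKB1 and 0.14 at NFKBIA. With 1 highest p for all lists it was 0.097 at NFKB1 and 0.023 at NFKBIA. Between the replicates 1 it was 0 at CXCL8 and 1 at NFKB1, and among the others 0 at IL1B and 0.11 at NFKBIA. Leaving out each library gave 0.29 to 1.29 at IL1B, -0.30 to 0.020 at CXCL8, -0.12 to 0.68 at IL10, 0 to 0.79 at CCL2, -0.79 to 0.50 at NFKB1 and -0.35 to 0.26 at NFKBIA. Same-numbered libraries did not deviate together (correlations of 0.089, -0.0046 and -0.024 over 298 sites), and not every library correlated best with its own number. With a replicate block the difference was 0 at CXCL8 and 0.50 at NFKB1, with no other change of sign.

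The count of hormone-only sites (2) was 1 at a fold of 5 or more, the IL1B site at the window edge. With windows of 50 kb it was 1, the other IL1B site. At a fold of 10 or more it was 2, but these were the nearer CXCL8 site and the distant NFKBIA site. Their EtOH peaks fell below that limit. The count was 8 between the replicates 1 and 4 among the others, where fewer lists have to agree. It was 2 to 6 without each library, with 4 without 1,25D replicate 1 and 6 without 1,25D replicate 3. The EtOH-only count (0) was 4 between the replicates 1 and 0 to 1 without each library, the 1 being the site near the end of NFKBIA without EtOH replicate 2. The count of sites in every list (5) was 1 at a fold of 10 or more, 3 with windows of 50 kb, which leave out the distant sites of IL10 and NFKBIA, and 5 without each library.

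The difference in log2 fold stayed positive without each library at the distant sites: 1.48 to 1.82 and 0.63 to 1.04 at CXCL8, 0.74 to 1.02 at IL10 and 1.13 to 1.41 at NFKBIA. At the site inside NFKBIA it was -0.069 to 0.37. By rank, the mean EtOH rank minus the mean 1,25D rank was negative at the farther CXCL8 site (-2.17), the IL10 site (-14.7) and the site inside NFKBIA (-27), which is the opposite direction to the fold. The log2 ratio within lists was -0.95 to -0.67 at CXCL8 and 0.95 to 1.32 at NFKBIA without each library. Unknown sequencing depth limits what an absent peak shows.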
